A study of Rattus norvegicus with 3 samples.

Results

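The tripartite motif (Trim) genes were taken as all genes whose symbol in the deposited gene list starts with Trim followed by a digit. This gave 56 members among 30560 features, of which 7162 carried an Ensembl ID in place of a symbol. Trim38, Trim30d and Trim60, which RefSeq lists for the rat, were not found by symbol. The members are therefore not the whole rat family. They were followed in nuclei from the brains of wild-type female Crl:CD(SD) rats, an outbred stock, at an age of 12 weeks. All animals received an intraperitoneal injection 7 hours before the brain was taken: saline in the control group, lipopolysaccharide (LPS) at 5 mg/kg or poly(I:C) at 12 mg/kg. Nuclei of 4 animals were pooled in each group and made into 1 single-nucleus library with 10x Genomics 5′ chemistry, so each comparison sets 1 library against 1 library. No nucleus could be traced to its animal, and no p-value was computed. All intervals below are exact 95% intervals for counting error alone and do not cover differences between animals or preparations. Poly(I:C) mimics the double-stranded RNA of viruses, and LPS, which binds the Tlr4 complex, comes from the outer membrane of Gram-negative bacteria.

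Trim proteins share a front part made of a RING ubiquitin ligase domain, 1 or more B-box zinc fingers and a coiled coil, although some members lack the RING. The end of the protein differs between members and sets what they bind: a SPRY domain in most antiviral members, a COS box that holds the protein to microtubules, a PHD finger with a bromodomain in the chromatin regulators, and NHL repeats in members known from axons and dendrites. Some proteins combine several of these parts. Several SPRY members are interferon-induced and act in the sensing of viral RNA or in blocking virus particles, whereas other members serve protein turnover in neurons.

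The libraries held 25435 (saline), 11211 (LPS) and 15001 (poly(I:C)) barcodes with 35532360, 29763787 and 21340578 UMIs (unique molecular identifiers, counted RNA molecules). The median barcode held 1165, 2436 and 1264 UMIs. Between 247 and 550 barcode sequences occurred in more than 1 library, at most 3.75% of the smaller library. Trim members together took 64439, 53539 and 38729 UMIs, which is 1814, 1799 and 1815 CPM (UMIs per 1000000 UMIs of the library or class). Their summed level thus differed little between libraries. A UMI was found for 52, 53 and 50 members, and Trim40 and Trim80 had none in any library.

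A member was called higher or lower where its CPM ratio between 2 libraries was at least 2 or at most 0.5, with at least 20 UMIs in both libraries together. Over all barcodes, 5 of 44 members with enough UMIs were called higher after poly(I:C) than after saline (background over all 15916 features tested: 2.24%), and 0 of 44 were called lower (background 2.9%). After LPS, 2 of 45 were higher than after saline (background 2.5%) and 1 was lower (background 1.74%). Between the treated libraries, 5 of 43 were lower after LPS than after poly(I:C) (background 1.45%) and 1 was higher (background 2.61%). The 5 members higher after poly(I:C) were Trim5, Trim21, Trim25, Trim34 and Trim56, and the comparison of LPS with poly(I:C) called the same 5. Both comparisons with saline share the saline library, and the LPS against poly(I:C) comparison shares a library with each of them. A sum over all nuclei cannot tell fewer cells of a type from less RNA per cell.

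Trim5, known in primates as a restriction factor that binds retroviral capsids, had 99 UMIs after saline, 213 after LPS and 436 after poly(I:C). Its level was 2.79 CPM (interval 2.26 to 3.39), 7.16 CPM (6.23 to 8.19) and 20.4 CPM (18.6 to 22.4) in that order. The ratio to saline was 2.57 (interval 2.01 to 3.29) after LPS and 7.33 (5.88 to 9.22) after poly(I:C). No 2 of the 3 intervals overlapped, with LPS between saline and poly(I:C).

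Trim21, a cytosolic receptor for antibody-coated particles, had 45, 89 and 276 UMIs after saline, LPS and poly(I:C). Its level was 1.27, 2.99 and 12.9 CPM, a ratio to saline of 2.36 (interval 1.63 to 3.46) after LPS and 10.2 (7.43 to 14.3) after poly(I:C). The order of the libraries was that of Trim5. Trim21 after LPS was the called member nearest above the 2-fold threshold in that comparison, and Trim58, with 9 saline and 14 LPS UMIs and a ratio of 1.86, lay nearest below it.

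Trim25, a ligase that acts with the RNA sensor Ddx58 and is a cofactor of the antiviral Zc3hav1, had 91, 85 and 181 UMIs, or 2.56, 2.86 and 8.48 CPM. Trim56, a ligase linked to responses to cytosolic nucleic acid, had 59, 63 and 170 UMIs, or 1.66, 2.12 and 7.97 CPM. Poly(I:C) to saline ratios were 3.31 (interval 2.56 to 4.31) for Trim25 and 4.80 (3.55 to 6.57) for Trim56. After LPS the ratios were 1.12 (0.820 to 1.52) and 1.28 (0.879 to 1.85), so for both genes the LPS library lay near saline and the poly(I:C) library stood apart.

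Trim34, a close relative and direct neighbour of Trim5, had 32, 28 and 43 UMIs, or 0.901, 0.941 and 2.02 CPM. Its poly(I:C) ratio was 2.24 (interval 1.38 to 3.65), the nearest above the threshold. With barcodes of at least 500 detected genes it was 1.82, below the threshold. On the other side, Trim55, a muscle-type RING finger gene, had 29 saline and 9 poly(I:C) UMIs and a ratio of 0.517 (0.215 to 1.12). In the RefSeq gene order of assembly GRCr8, Trim6, Trim34 and Trim5 lie in a row, followed by a pseudogene and Trim30c. Reads shared between these similar genes may have been split or lost in the authors' counting, so their separate values are uncertain. Trim30c had 0, 1 and 4 UMIs and Trim6 had 1, 0 and 2, too few to compare.

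Trim43a, from a group of near-identical rodent copies, had 22, 6 and 11 UMIs after saline, LPS and poly(I:C). It was 3.07-fold lower after LPS than after saline (interval 1.21 to 9.26), the only member called lower, and its ratio after poly(I:C) was 0.833 (0.365 to 1.79). Because similar copies exist, this value is uncertain as well.

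**Figure D1:**
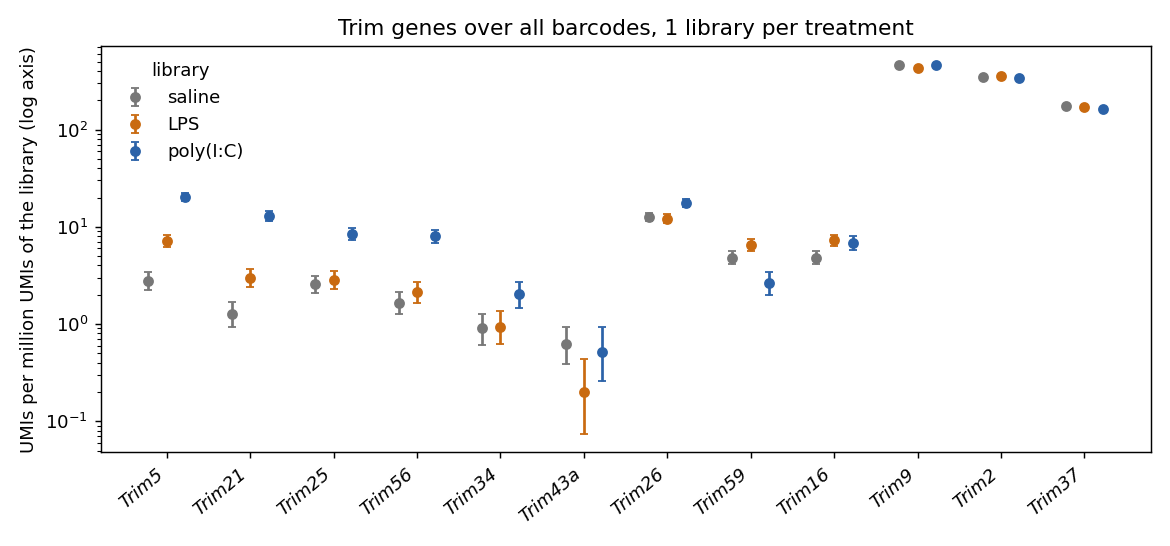
Level of 12 Trim genes over all barcodes in CPM (log axis), 1 point per library with its exact Poisson 95% interval. Trim5 and Trim21 step up from saline to LPS to poly(I:C), whereas Trim25 and Trim56 stand apart after poly(I:C) alone and Trim9, Trim2 and Trim37 lie level.

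Promoter sequences from RefSeq (build GRCr8, 250 bases before to 50 after the gene start) matched 46 of the 56 members. They were searched on both strands for letters of an interferon-stimulated response element, which were GAAA followed by GAAA with 1 or 2 bases of any kind in between and can overlap each other, and for the gamma-activated sequence type TTCNNNGAA. The response element letters were present in 2 of the 6 members called against saline (Trim21 and Trim34), in 2 of the 24 constant members defined below (Trim26 and Trim8) and in 1 of the other 16 (Trim40), against 6.84% of all 27457 promoters. Constant refers to all barcodes together: within classes, Trim26 was called higher after poly(I:C) in endothelial barcodes and in oligodendrocytes. The gamma-activated type was in 0 of the 6 and in 8.68% of all promoters. A match is a run of letters, not a shown binding site, and no match says only that these letters are absent from this window. The promoters below show the members that hold the letters with enough UMIs to compare, and Trim5 and Trim56 as strongly raised members without them; capitals mark the matched letters. The coordinates belong to GRCr8 and were not carried over to the build of the counts.
Trim21 (chr1:166399372-166399471, minus strand, the 100 bases before the start): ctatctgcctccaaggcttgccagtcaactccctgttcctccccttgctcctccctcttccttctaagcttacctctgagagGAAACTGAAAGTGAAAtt
Trim34 (chr1:168119046-168119075, plus strand, 30 bases beginning at base 4 after the start): tctggagTTTCAGTTTCTTTTTCtcggcat
Trim26 (chr20:1736452-1736551, minus strand, bases 240 to 141 before the start): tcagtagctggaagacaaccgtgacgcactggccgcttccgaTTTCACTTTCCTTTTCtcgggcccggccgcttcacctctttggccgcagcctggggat
Trim8 (chr1:255310939-255311038, plus strand, the 100 bases before the start): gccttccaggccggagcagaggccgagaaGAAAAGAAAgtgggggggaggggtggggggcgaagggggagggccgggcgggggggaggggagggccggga
Trim5 (chr1:168149264-168149363, minus strand, the 100 bases before the start): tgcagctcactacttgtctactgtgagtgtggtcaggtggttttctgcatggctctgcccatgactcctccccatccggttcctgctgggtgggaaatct
Trim56 (chr12:25193208-25193307, plus strand, the 100 bases before the start): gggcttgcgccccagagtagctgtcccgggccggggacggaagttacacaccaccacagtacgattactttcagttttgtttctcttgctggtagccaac
In Trim21, Trim34 and Trim26 the capitals join 2 overlapping copies with 2 bases in between, read on the opposite strand in Trim34 and Trim26. In Trim8 they mark 1 copy with 1 base in between.

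To separate responsive from constant members, a member was taken as constant where both ratios to saline lay within 1.5-fold and both whole intervals within 2-fold. By this rule 6 members were responsive (called against saline with an interval that leaves out 1), 29 were constant and 21 were undecided. The constant members held 153123 of the UMIs over the 3 libraries, the responsive members 1949 and the undecided members 1635. The split was made from the ratios themselves and is a description. A constant member can still have an interval that leaves out 1. Examples are Trim26 after poly(I:C), at 1.40 (1.22 to 1.61), and Trim62 after LPS, at 0.701 (0.565 to 0.865). Of the undecided members, 11 were under the minimum of 20 UMIs for LPS against saline. Besides Trim40 and Trim80, no UMI was found for Trim30c and Trim42 after saline, for Trim6 after LPS, and for Trim29, Trim31, Trim42 and Trim50 after poly(I:C). The domain groups follow lists made for this work, with each member on at most 1 list. Trim14 (constant) and Trim16 (undecided) are among the other members although their proteins also end in a SPRY domain. Trim9, Trim36, Trim46 and Trim67 (all constant) are on the COS-box list, and their proteins end in a SPRY domain too. The lists therefore do not separate SPRY proteins from the rest. Of the 25 members on the SPRY list, 5 were responsive, 10 constant and 10 undecided; 5 of 7 COS-box members, 4 of 4 PHD-bromodomain members and 3 of 4 NHL-repeat members were constant, and none of these 3 groups held a responsive member. Of the 15 other members, Trim56 was responsive, 7 were constant and 7 undecided. Among the members with enough UMIs, 2 of 20 on the SPRY list were higher and 1 was lower after LPS (background 2.5% and 1.74%), and 4 of 19 were higher after poly(I:C) (background 2.24%); the median log2 ratio of the group was -0.04 and 0.03. None of the 7 COS-box, 4 PHD-bromodomain and 4 NHL-repeat members was called, with medians of -0.08, -0.01 and -0.11 after LPS and -0.05, 0.03 and -0.09 after poly(I:C). The 10 other members tested had medians of 0.17 and -0.08, and Trim56 was the one called. The median log2 ratio of all tested members was -0.02 after LPS and -0.03 after poly(I:C), beside -0.03 and -0.09 for all features tested.

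**Figure D2:**
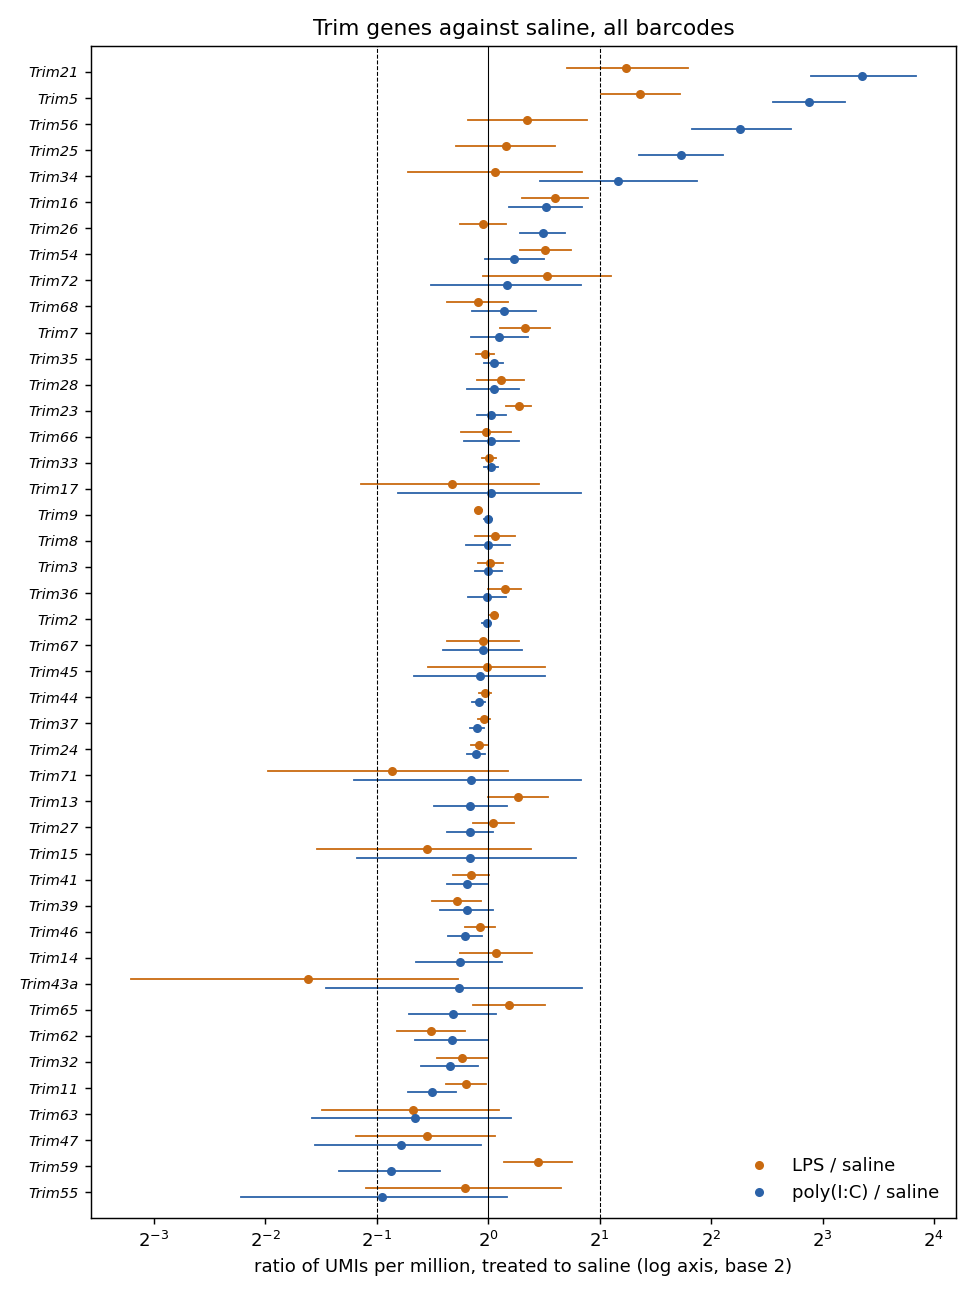
Ratio of CPM to saline (log axis, base 2) for the members with at least 20 UMIs in saline and poly(I:C) together, LPS in orange and poly(I:C) in blue, with exact 95% intervals for counting error; dashed lines mark 2-fold. The 5 genes at the top leave the band after poly(I:C), and most others cluster around 1.

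Among the COS-box and NHL-repeat members, Trim9 and Trim2 carried the most UMIs of the family. Trim9, a neuronal ligase of axon guidance and branching, had 16274, 12810 and 9779 UMIs, or 458, 430 and 458 CPM. Trim2, which ubiquitinates neurofilament light chain, had 12243, 10606 and 7275 UMIs, or 345, 356 and 341 CPM. Trim3, an NHL-repeat ligase of dendritic spines, stood at 41.6, 42.2 and 41.6 CPM. For Trim9 the intervals of the ratio to saline were 0.918 to 0.962 after LPS and 0.976 to 1.03 after poly(I:C), so Trim9 stood at much the same level in each library.

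The chromatin members gave the same picture. Trim33, a regulator of Smad signalling, stood at 140, 141 and 143 CPM, and Trim24, a cofactor of nuclear receptors, at 100.4, 94.7 and 93.1 CPM. Trim28, the corepressor of KRAB zinc finger proteins, stood at 11.1, 12.0 and 11.5 CPM. Over all barcodes none of the 10 listed partners of Trim28 was called in either comparison with saline. Their log2 ratios lay between -0.16 and 0.21 after LPS and between -0.21 and 0.10 after poly(I:C). In the endothelial class defined below, 3 of 9 partners tested were called lower after poly(I:C) (background 14.6%) and 0 higher (background 7.79%). These were Cbx5, at a ratio of 0.382 (interval 0.132 to 0.907), and Hdac1 and Hdac2, whose intervals hold 1. After LPS 0 of 10 were called there (backgrounds 9.04% higher and 8.93% lower).

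Trim44, a member without a RING that carries a ubiquitin-binding zinc finger, stood at 176, 172 and 166 CPM, and Trim37, a ligase of peroxisomes and centrosomes, at 174, 169 and 162 CPM. Trim35, a SPRY member, stood at 84.4, 82.6 and 87.2 CPM. With Trim9, Trim2, Trim33, Trim24 and Trim3 these were the 8 constant members with the most UMIs. Over all 29 constant members the ratios to saline ran from 0.701 to 1.43 after LPS and from 0.704 to 1.40 after poly(I:C). The highest after poly(I:C) was that of Trim26, a SPRY member encoded in the class I histocompatibility region, with 445, 361 and 375 UMIs and 12.5, 12.1 and 17.6 CPM.

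The 2 undecided members with the most UMIs were Trim16 and Trim59. Trim16, a galectin-binding member of the response to damaged membranes, had 171, 217 and 147 UMIs, or 4.81, 7.29 and 6.89 CPM. Its ratios to saline were 1.52 (interval 1.23 to 1.86) after LPS and 1.43 (1.14 to 1.80) after poly(I:C), above 1 and below the threshold. Trim59, a member anchored in the endoplasmic reticulum membrane, had 171, 195 and 56 UMIs, or 4.81, 6.55 and 2.62 CPM, and was the only member called higher after LPS than after poly(I:C), by 2.50-fold (1.85 to 3.42). Its poly(I:C) to saline ratio of 0.545 (0.396 to 0.741) lay above the threshold for a lower call.

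Barcodes were then assigned to cell classes by marker genes. A class needed at least 2 distinct markers with a UMI, and at least 2 times as many as any other class. Striatal projection neurons and inhibitory neurons were exempt from this second rule towards each other. Instead, a barcode with at least 2 striatal markers could not be an inhibitory neuron. This left 51.6%, 34.0% and 48.7% of saline, LPS and poly(I:C) barcodes without a class. Endothelial barcodes numbered 433, 158 and 197, excitatory neurons 8053, 4049 and 4928, oligodendrocytes 666, 895 and 320, and astrocytes 136, 263 and 70. Classes were compared where both libraries held at least 50 barcodes. Marker levels within a class are set by this gate and do not test its name. Endothelial markers summed to 6303, 7590 and 5590 CPM in the endothelial class. Non-neuronal classes were not free of neuronal RNA, since Syt1, a synaptic vesicle gene, was detected in 50.4%, 30.4% and 46.2% of endothelial barcodes and in 59.5%, 34.3% and 50% of oligodendrocytes.

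In the saline library 4 of the 6 responsive genes, Trim5, Trim21, Trim25 and Trim56, stood far higher in endothelial barcodes than in excitatory neurons. This was not limited to responsive genes. Of 35 members with at least 20 UMIs in both classes together, 10 were at least 2-fold higher in endothelial barcodes and 3 at least 2-fold lower. Intervals of these left out 1, and Trim21 was under that minimum. The share over all features was not computed. Trim5 stood at 60.2 CPM in endothelial barcodes (interval 40.3 to 86.5) against 0.843 CPM in excitatory neurons (0.435 to 1.47), and Trim25 at 68.5 against 1.05 CPM. Trim56 stood at 51.9 against 0.421 CPM and Trim21 at 27.0 against 0.351 CPM. Trim34 had 5 endothelial and 6 excitatory UMIs, and Trim43a had 0 and 6. The endothelial class, 1.70% of saline barcodes, held 29.3% of the Trim5 UMIs and 36.3% of the Trim25 UMIs. Thinned to 1000 UMIs per barcode, 5.09% of 177 endothelial barcodes and 0.0154% of 6511 excitatory neurons had a Trim5 UMI, beside 6.47% of 433 and 0.149% of 8053 before thinning. The endothelial share was the higher one at this equal depth too. The median endothelial barcode held 861 UMIs and the median excitatory neuron 1582, and thinning left out 256 endothelial and 1542 excitatory barcodes with fewer than 1000.

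The constant members differed in their leading class. Several stood higher in saline endothelial barcodes than in excitatory neurons, among them Trim24 at 187 against 91.9 CPM, Trim8 at 43.6 against 13.4 CPM and Trim28 at 31.1 against 9.55 CPM. Trim27 (31.1 against 13.1 CPM) and Trim65 (16.6 against 2.53 CPM) did so as well; Trim8, Trim27, Trim28 and Trim65 were picked out after their values were seen. Trim9 stood at 548 CPM in saline excitatory neurons against 324 in inhibitory neurons, 321 in oligodendrocytes and 174 in endothelial barcodes, 3.14-fold lower in the last (interval 2.53 to 3.94). Trim2 was highest in oligodendrocytes, at 1099 CPM (1024 to 1179) against 332 (323 to 342) in excitatory neurons, and at 1211 against 328 CPM after LPS and 1028 against 353 CPM after poly(I:C). All 3 libraries thus gave the same order for Trim2. Trim59 also had its highest saline level in oligodendrocytes, at 58.8 CPM against 2.53 in excitatory neurons.

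The next 3 members were picked out after their class values were seen. Trim47, a SPRY member, stood at 37.4 CPM in saline endothelial barcodes (18 UMIs) against 0.562 CPM in excitatory neurons (8 UMIs). Trim36, a COS-box member, stood at 93.8 CPM in saline oligodendrocytes against 21.2 in excitatory neurons, at 146 against 21.4 after LPS and at 109 against 23.0 after poly(I:C). Trim54, a muscle-type RING finger gene, had 61.6%, 79.1% and 58.8% of its UMIs in excitatory neurons, where it stood at 12.5, 19.0 and 13.5 CPM against 1.40, 2.87 and 2.96 CPM in inhibitory neurons.

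**Figure D3:**
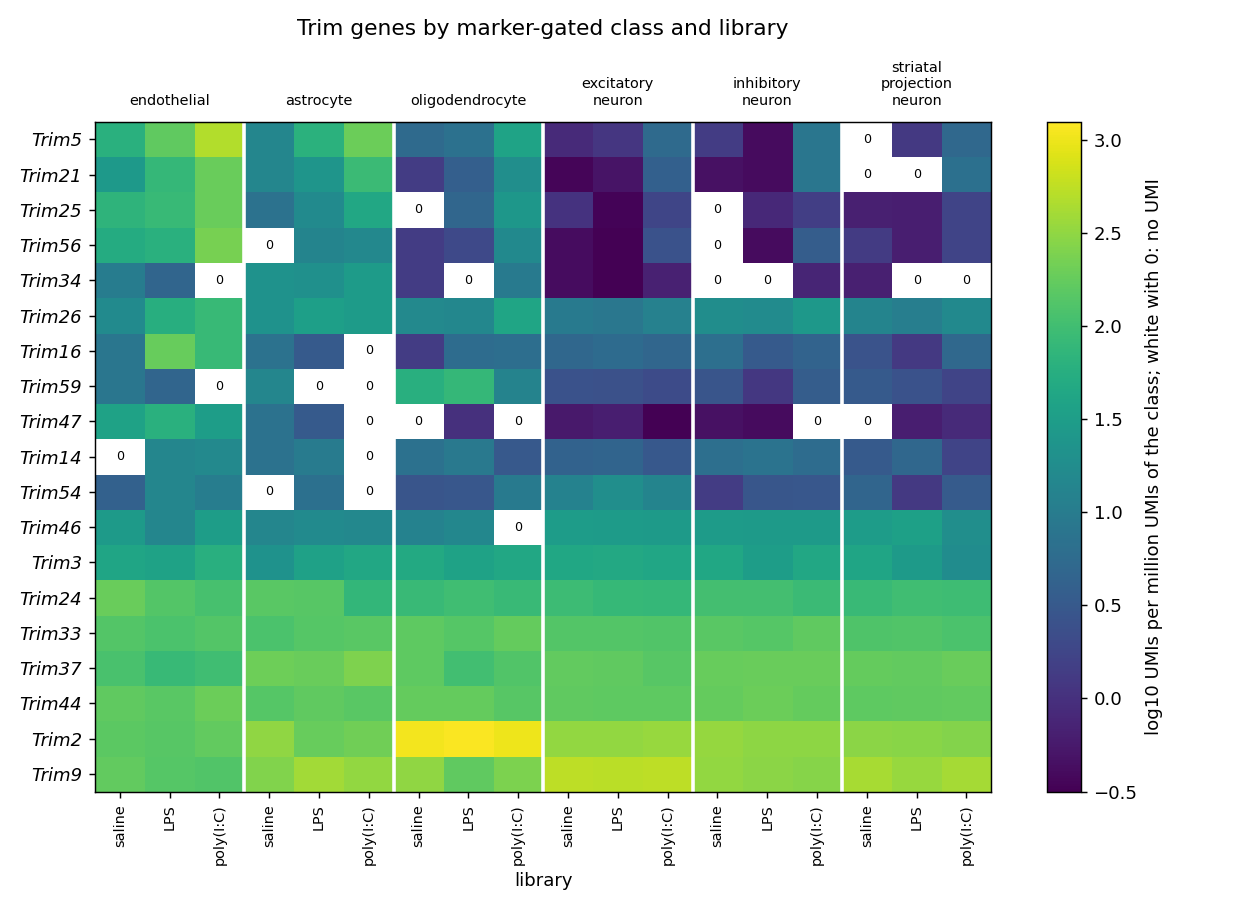
Level of 19 Trim genes in 6 marker-gated classes of each library, colour giving log10 CPM of the class and white cells with 0 having no UMI. Trim5, Trim21, Trim25 and Trim56 are higher in the endothelial columns than in the excitatory neuron columns, and Trim2 is highest in the oligodendrocyte columns.

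In endothelial barcodes, 6 of 20 members with enough UMIs were higher after poly(I:C) than after saline (background 7.79%) and none was lower (background 14.6%). After LPS, 4 of 19 were higher (background 9.04%) and none lower (background 8.93%). Trim5 had 29, 36 and 93 UMIs there, or 60.2, 169 and 492 CPM, with ratios to saline of 2.81 (interval 1.67 to 4.75) after LPS and 8.17 (5.33 to 12.9) after poly(I:C). Trim21 had 13, 17 and 36 UMIs, or 27.0, 79.8 and 190 CPM, with ratios of 2.96 (1.35 to 6.62) and 7.05 (3.65 to 14.5). As over all barcodes, the order was saline, LPS, poly(I:C) for both genes.

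Trim25 had 33, 18 and 36 endothelial UMIs, or 68.5, 84.5 and 190 CPM, and was 2.78-fold higher after poly(I:C) than after saline (interval 1.68 to 4.60). Trim56 had 25, 13 and 43 UMIs, or 51.9, 61.0 and 227 CPM, and was 4.38-fold higher after poly(I:C) (2.62 to 7.49). Neither was called after LPS, and both were called lower after LPS than after poly(I:C), among 4 of 13 members (background 6.21%). That call was lost for Trim25 with barcodes of at least 500 genes, at a ratio of 0.584. Trim26, constant over all barcodes, had 8, 12 and 16 endothelial UMIs, or 16.6, 56.3 and 84.6 CPM, with ratios to saline of 3.39 (1.28 to 9.56) after LPS and 5.10 (2.06 to 13.8) after poly(I:C).

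Trim16 had 4 endothelial UMIs after saline, 39 after LPS and 16 after poly(I:C), or 8.31, 183 and 84.6 CPM. The ratio to saline was 22.04 (interval 7.95 to 84.9) after LPS and 10.2 (3.29 to 41.9) after poly(I:C), resting on the 4 saline UMIs. It was the only member of 13 called higher in endothelial barcodes after LPS than after poly(I:C), by 2.16-fold (1.18 to 4.15; background 9.39%), and this call was lost under 3 of the alternatives tried, at 1.94, 1.89 and 1.28. In excitatory neurons Trim16 stood at 5.06, 5.77 and 4.93 CPM, with no call. The LPS endothelial barcodes were thus the highest of the classes shown for this gene.

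Among markers of blood cells, those of neutrophils were higher in endothelial barcodes after both treatments, with LPS above poly(I:C). Neutrophil markers summed to 4.15, 892 and 428 CPM in saline, LPS and poly(I:C) endothelial barcodes, with 2, 8 and 8 of 10 markers detected and Ltf at 0 in each. Without barcodes holding a neutrophil marker UMI, an alternative chosen after seeing the data, Trim16 ratios were 22.4 after LPS and 8.75 after poly(I:C), and Trim5 ratios were 2.44 and 7.89. Mural cell markers summed to 2454, 2154 and 1888 CPM in the class, with Acta2 at 0 after poly(I:C), and their part in the result was not tested. T or NK cell markers summed to 6.23, 0 and 0 CPM. Without Syt1-positive barcodes the Trim5 ratios were 2.52 and 6.79. The Trim16 ratios were then 13.0 and 10.1, on 3 saline UMIs. Without those barcodes Trim26 (4, 6 and 8 UMIs) fell under the minimum in both comparisons, Trim21 (6 and 13 UMIs) in that of LPS and Trim16 (3 and 12 UMIs) in that of poly(I:C).

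Excitatory neurons had lower levels of Trim5, Trim21 and Trim56, and these were called after poly(I:C) there too; whether the ratios differed between classes was not tested. In this class 3 of 38 members were higher after poly(I:C) than after saline (background 1.01%) and none lower (background 2.31%). Trim21 had 5, 7 and 36 UMIs, or 0.351, 0.487 and 4.04 CPM, a poly(I:C) ratio of 11.5 (interval 4.50 to 37.5). Trim5 had 12, 17 and 50 UMIs, or 0.843, 1.18 and 5.60 CPM, a ratio of 6.65 (3.49 to 13.7). Trim56 had 6, 2 and 23 UMIs, or 0.421, 0.139 and 2.58 CPM, a ratio of 6.12 (2.42 to 18.4). For each of them the poly(I:C) library stood apart while saline and LPS overlapped.

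After LPS, 0 of 35 members were higher in excitatory neurons than after saline (background 0.6%) and 1 was lower (background 1.82%). This was Trim25, with 15, 5 and 16 UMIs, 3.03-fold lower after LPS (interval 1.05 to 10.7); without the 5% of barcodes with most UMIs it fell under the minimum of 20 UMIs, at 13 and 5. Against poly(I:C), 4 of 37 were lower after LPS (Trim5, Trim21, Trim25 and Trim56; background 1.21%) and 0 were higher (background 1.25%). Free RNA from other cells can add UMIs to any barcode, and its part in these low levels was not tested. Endothelial markers in excitatory neurons summed to 29.4, 21.8 and 28.1 CPM, a sum the gate itself holds down.

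**Figure D4:**
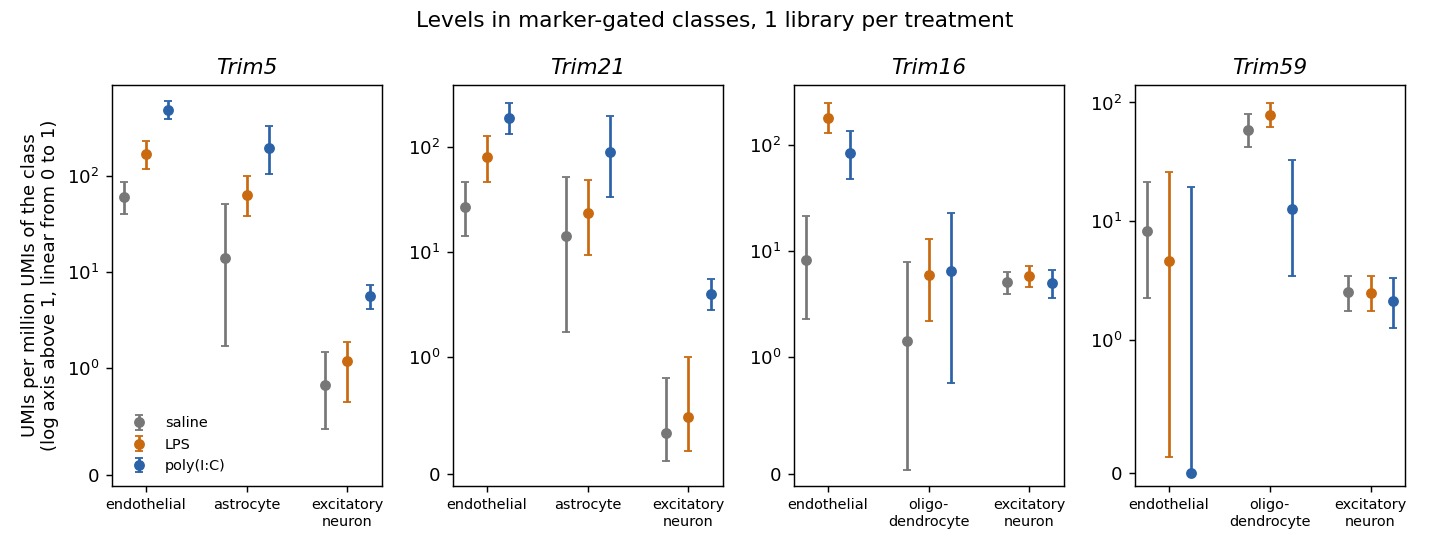
Level of Trim5, Trim21, Trim16 and Trim59 in selected classes in CPM (logarithmic above 1, linear from 0 to 1), 1 point per library with its exact Poisson 95% interval. Trim5 and Trim21 are highest after poly(I:C) in each class shown, and Trim16 is highest in LPS endothelial barcodes. Within oligodendrocytes, Trim59 is lowest after poly(I:C).

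In oligodendrocytes 1 of 13 members was lower after poly(I:C) than after saline (background 4.22%) and 1 was higher (background 2.6%). The lower one was Trim59, with 42, 80 and 4 UMIs, or 58.8, 78.9 and 12.8 CPM. It was 4.59-fold lower after poly(I:C) than after saline (interval 1.67 to 17.6) and 6.16-fold higher after LPS than after poly(I:C) (2.32 to 23.2), the only one of 18 members called higher in that comparison (background 6.63%). Saline and LPS overlapped for Trim59 and the poly(I:C) library lay below both, on 4 UMIs.

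With a gate of 3 markers the poly(I:C) to saline ratio of Trim59 was 0.278, from 4 and 34 UMIs. Without Syt1-positive oligodendrocytes 1 and 15 UMIs remained, too few for a call, at a ratio of 0.122. Oligodendrocyte markers summed to 3691, 5161 and 3859 CPM in the class, levels that the gate on these markers sets in part. Oligodendrocytes made up 2.62%, 7.98% and 2.13% of all barcodes; the part of this share in the Trim59 values over all barcodes was not tested. In excitatory neurons Trim59 stood at 2.53, 2.50 and 2.13 CPM. The higher member after poly(I:C) was Trim26, with 11, 15 and 13 UMIs, or 15.4, 14.8 and 41.6 CPM, a ratio of 2.70 (1.12 to 6.66), and it was the 1 of 18 called lower after LPS than after poly(I:C) (background 3.52%). None of 21 members was called after LPS against saline in oligodendrocytes (backgrounds 4.08% higher and 3.46% lower).

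Astrocytes held few UMIs of these genes. Trim5 had 2, 19 and 13 UMIs there, or 14.2, 63.8 and 196 CPM. After LPS it was the 1 of 8 members called higher than after saline, by 4.48-fold (interval 1.08 to 39.7; background 9.33%), and none was lower (background 3.77%). It was also the 1 of 8 called lower after LPS than after poly(I:C), by 3.07-fold (1.39 to 6.56; background 5.22%). Without Syt1-positive barcodes Trim5 had 0 saline and 17 LPS UMIs, under the minimum and at least 1.34-fold higher when 3 counts stand in for the 0. The saline and poly(I:C) counts together were below the minimum, so no call was made between them, and none of the 6 members tested was called (backgrounds 3.61% higher and 5.37% lower). None was higher after LPS than after poly(I:C) (background 13.6%).

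Elsewhere few members were called. In inhibitory neurons Trim5 had 3, 1 and 11 UMIs and Trim21 had 1, 1 and 11, and in striatal projection neurons Trim21 had 0, 0 and 8, all under the minimum. In oligodendrocyte precursors Trim9 had 30 saline and 10 poly(I:C) UMIs, 2.45-fold lower after poly(I:C) (interval 1.17 to 5.62), among 2 of 5 members called lower (background 4.57%) and 0 higher (background 5.96%); with a gate of 3 markers its ratio was 0.873. In striatal projection neurons Trim3 had 62, 46 and 21 UMIs, or 41.3, 29.3 and 18.0 CPM, 2.30-fold lower after poly(I:C) than after saline (1.38 to 3.97), among 2 of 22 called lower (background 3.09%) and 0 higher (background 1.07%).

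Trim23, a member with an Arf-type GTPase domain, had 59, 83 and 27 UMIs in striatal projection neurons, and was 2.29-fold higher after LPS than after poly(I:C) (interval 1.47 to 3.68), the 1 of 22 called higher (background 2.15%). Trim66, a chromatin member, had 28, 18 and 29 UMIs in inhibitory neurons, and was 2.91-fold lower after LPS than after poly(I:C) (1.56 to 5.57), the 1 of 27 called lower (background 1.25%); with a gate of 3 markers its ratio was 0.501.

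Other class calls had intervals that hold 1. In oligodendrocyte precursors these were Trim37, the 1 of 6 higher after LPS than after saline (background 7.91%; 0 lower, background 5.55%), and Trim24 after poly(I:C). Of 6 members there, 0 were higher (background 10.1%) or lower (background 7.2%) after LPS than after poly(I:C). In ependymal barcodes it was Trim24, the 1 of 7 higher after LPS (background 13.6%; 0 lower, background 8.81%). In striatal projection neurons they were Trim36 after poly(I:C) and Trim62, the 1 of 22 lower after LPS than after poly(I:C) (background 1.47%); against saline 0 of 23 were higher (background 0.952%) or lower (background 2.12%) after LPS. In inhibitory neurons 0 of 28 were higher (background 0.892%) or lower (background 1.45%) after LPS, 0 of 27 higher (background 1.13%) or lower (background 2.32%) after poly(I:C), and 0 of 27 higher after LPS than after poly(I:C) (background 1.87%). The microglia or macrophage class, with 49, 88 and 78 barcodes, was compared between LPS and poly(I:C) alone, where none of 6 members was called (backgrounds 6.18% higher and 4.19% lower). Trim5 had 0, 9 and 10 UMIs in it.

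Tripartite motif genes under other symbols were few. Pml, which builds nuclear bodies and is interferon-induced, had 153, 140 and 387 UMIs, or 4.31, 4.70 and 18.1 CPM, 4.21-fold higher after poly(I:C) (interval 3.48 to 5.11) and at a ratio of 1.09 (0.862 to 1.38) after LPS. The microtubule-bound Mid1 and Mid2 were not called, with poly(I:C) ratios of 1.15 and 0.969, and Mefv had 0, 4 and 1 UMIs. Pml followed the order of Trim25 and Trim56, with LPS near saline.

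The sensing list held the RNA sensing pathway on which Trim25 acts and related genes such as Cgas, a sensor of DNA. Of its 15 genes with enough UMIs, 7 were called higher after poly(I:C) (background 2.24%) and 3 after LPS (background 2.5%). None was lower (background 2.9% and 1.74%). Cgas, with 13, 8 and 28 UMIs, was among the 7. The sensors Ddx58 and Ifih1 had 86, 126 and 834 and 120, 191 and 917 UMIs. Their poly(I:C) ratios were 16.2 (interval 12.9 to 20.4) and 12.7 (10.5 to 15.5), and their LPS ratios of 1.75 and 1.90 lay below the threshold. Zc3hav1, the zinc finger antiviral protein that Trim25 assists, had 116, 230 and 608 UMIs and was called after both, at 2.37 after LPS and 8.73 after poly(I:C), as was the transcription factor Irf7 at 14.4 and 44.1. The ubiquitin ligase Rnf125, a negative regulator of Ddx58, was higher by 3.24-fold after LPS and 2.57-fold after poly(I:C), whereas Rnf135, a ligase that also acts on Ddx58, had ratios of 0.931 and 0.933. The adaptor Mavs (1.16 and 0.963), the kinase Tbk1 (0.990 and 1.02) and Irf3 (1.03 and 0.980) were not called.

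Of 9 interferon signalling genes with enough UMIs, 4 were higher after poly(I:C) (Stat2, Irf1, Socs1 and Usp18; background 2.24%) and 3 after LPS (Irf1, Socs1 and Usp18; background 2.5%). Usp18, which removes Isg15 and restrains the receptor, had 61, 160 and 1423 UMIs, with ratios of 3.13 after LPS and 38.8 after poly(I:C). The receptor subunit Ifnar1 (0.792 and 0.730) and the kinase Jak1 (0.997 and 0.989) were not called over all barcodes. In endothelial barcodes Ifnar1 had 275 saline and 50 poly(I:C) UMIs, a ratio of 0.463 (interval 0.336 to 0.628). It was the 1 of 8 signalling genes called lower there after poly(I:C) (background 14.6%), while 4 were higher (background 7.79%). After LPS its endothelial ratio was 0.608 (0.464 to 0.789), with no call. The median log2 ratio of the 15 sensing genes was 0.04 after LPS and 0.14 after poly(I:C), and of the 9 signalling genes 0.12 and 0.37, beside -0.03 and -0.09 for all features tested.

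In endothelial barcodes Ddx58 had 15, 23 and 75 UMIs, or 31.1, 108 and 397 CPM, and in excitatory neurons 15, 12 and 214 UMIs, or 1.05, 0.834 and 24.0 CPM. Its level was higher in endothelial barcodes in every library, as that of Trim5 was. The ratio of Ddx58 to saline was 3.47 after LPS and 12.7 after poly(I:C) in endothelial barcodes. In excitatory neurons it was 0.792 (interval 0.339 to 1.81) and 22.8 (13.5 to 41.4), so there the LPS library lay with saline for Ddx58. Zc3hav1 differed from it: with 8, 32 and 97 UMIs in excitatory neurons it was called after LPS, at 3.96 (1.79 to 9.95), and after poly(I:C), at 19.4 (9.44 to 46.1). Of the sensing list, Zc3hav1 was the 1 of 12 genes called higher in excitatory neurons after LPS (background 0.6%), and 5 of 13 were higher after poly(I:C) (background 1.01%). In endothelial barcodes 5 of 10 were higher after LPS (background 9.04%) and 6 of 11 after poly(I:C) (background 7.79%), where Khnyn, a partner of Zc3hav1, was the 1 called lower (17 saline and 3 poly(I:C) UMIs, an interval that holds 1; background 14.6%).

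**Figure D5:**
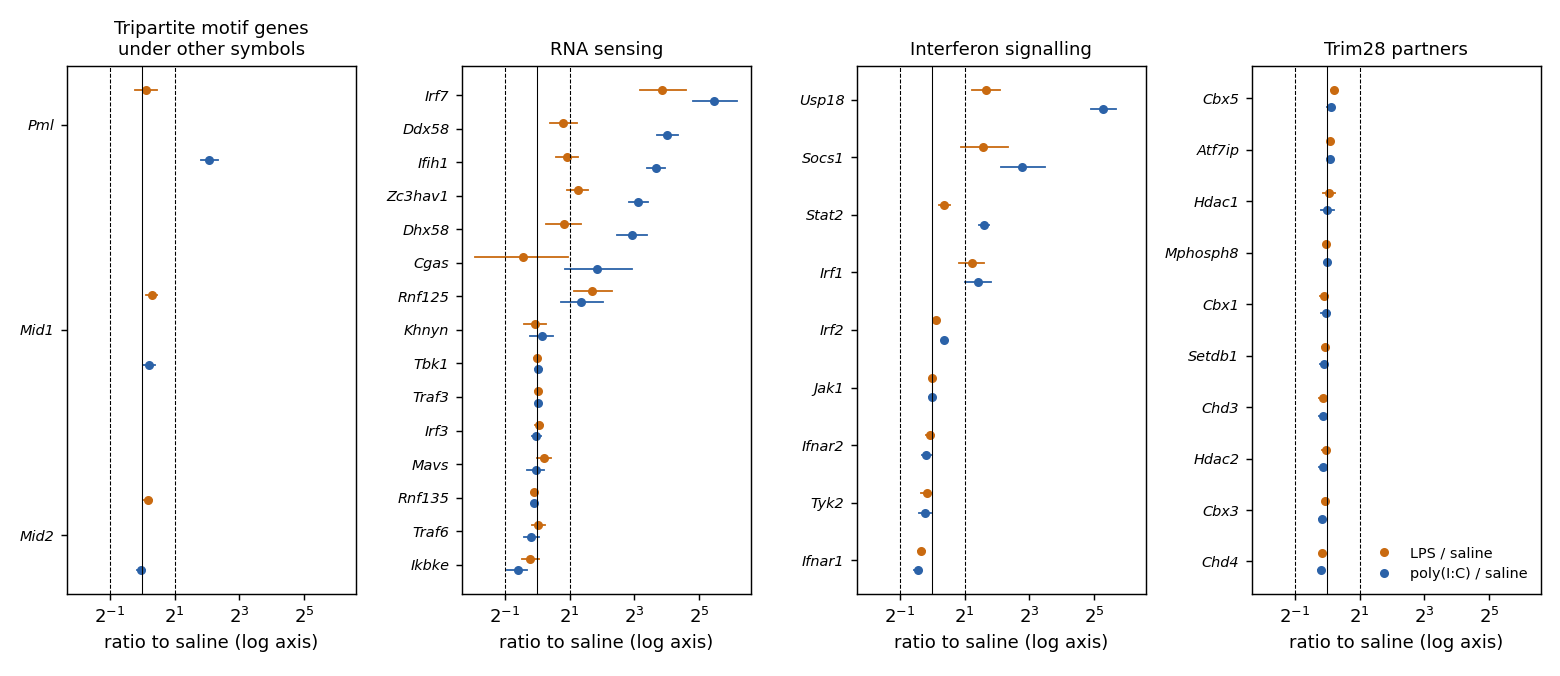
Ratio of CPM to saline over all barcodes (log axis, base 2) for related gene lists, LPS in orange and poly(I:C) in blue, with exact 95% intervals and dashed lines at 2-fold. Pml, 7 sensing genes and 4 signalling genes pass 2-fold after poly(I:C), and all 10 partners of Trim28 lie near 1.

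Barcodes with several of Trim5, Trim21, Trim25, Trim34 and Trim56 were counted after thinning to 1000 UMIs. These 5 were chosen because they were called higher after poly(I:C) in the same counts, so the order of the libraries was fixed in part by the choice and is given as a description. At least 1 of the 5 was found in 14.7% (interval 9.83 to 20.8) of 177 saline, 31.5% (21.1 to 43.4) of 73 LPS and 45.0% (32.1 to 58.4) of 60 poly(I:C) endothelial barcodes. At least 2 were found in 4, 9 and 9 of these barcodes. In excitatory neurons the share with at least 1 was 0.215% of 6511, 0.248% of 4026 and 1.55% (1.21 to 1.96) of 4448, with saline and LPS close together. At least 2 of the 5 were found in 0, 0 and 1 excitatory barcodes, where a count of 0 limits barcodes with UMIs and not nuclei expressing the genes.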

How the data were processed

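Single-nucleus libraries of whole rat brain were made with 10x Genomics 5′ chemistry. The authors deposited raw UMI counts per gene and barcode. These were made with Cell Ranger 7.0.0 on build mRatBN7.2, per the submitters' processing notes; the annotation release and the settings for calling nuclei are not given in the sources used here. No value was normalized before deposit.

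Counts were summed per library and per marker-gated class and divided by the class or library total. Of 100 gate markers, 3 were not matched in the gene list (Flt1, Lhfpl3, Foxj1), nor were the erythroid markers, or Gzmb of the T or NK cell list. Rigi and Riplet of the RNA sensing list were not matched either, but are other names of Ddx58 and Rnf135, which were matched. No doublet caller was run. Barcodes in which no class met the gate stayed without a class, so a class can hold barcodes with some markers of other classes. Ratios carry exact conditional Clopper-Pearson intervals and levels exact Poisson intervals, both for counting error only. With 1 library per group no test or p-value was possible. Depth was 21340578 to 35532360 UMIs per library.

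The members and lists were chosen with earlier results of these data known. Named are all responsive members, the 8 constant members with the most UMIs, members called in a class with an interval that leaves out 1, those nearest the threshold and those with no UMI; others are said to be chosen later. Alternatives covered size factors, the UMI minimum, the fold, genes per barcode, the barcodes with most UMIs, the gate and Syt1-positive barcodes; a minimum of 30 barcodes per class and the removal of barcodes with neutrophil markers were added after seeing the data. The ratio calls were tried on simulated whole libraries with counting error alone, in which only well-counted genes were changed. This does not cover changes in genes with few UMIs, gated classes or differences between animals. Python 3.11.15, numpy 2.4.6, scipy 1.17.1, pandas 2.3.3 and matplotlib 3.10.9 were used.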

Additional observations from a re-analysis of the deposited data

How the results depend on the processing

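No paired analysis was possible because each group is 1 library and the labels give no replicate numbers, and for the same reason no replicate could be left out. Over all barcodes Trim5 and Trim21 were called after both treatments under every alternative run. Trim34 was not called with barcodes of at least 500 genes (poly(I:C) to saline 1.82, LPS to poly(I:C) 0.531), where Trim47 made 1 member lower after poly(I:C) (3.20% of all features under that setting). A minimum of 50 UMIs left 0 lower after LPS (0.927% of all features), and a minimum of 10 gave 2 higher after LPS than after poly(I:C) (3.78%). At 1.5-fold, 4 were higher and 3 lower after LPS (5.68% and 5.02%), 4 lower after poly(I:C) (8.62%), and 2 higher after LPS than after poly(I:C) (7.38%).

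Counts summed over the gated classes depended more on the settings. Each count is followed by the share of all features called the same way under the same setting. They were 7 higher (3.65%) and 1 lower (3.44%) for LPS against saline, 10 (2.40%) and 5 (4.52%) for poly(I:C) against saline, and 3 (4.47%) and 12 (2.71%) for LPS against poly(I:C). With a minimum of 10 UMIs they were 12 (5.89%) and 7 (5.88%), 16 (4.06%) and 9 (7.46%), and 13 (7.63%) and 22 (4.74%). With a minimum of 50 the first became 1 (1.64%) and 0 (1.53%), the second 4 (1.22%) and 1 (1.70%), and 5 (1.20%) were lower in the last. At 1.5-fold they were 19 (9.66%) and 13 (11.3%), 16 (6.61%) and 18 (12.8%), and 14 (12.0%) and 21 (8.53%). The last comparison had 5 higher with median-of-ratios size factors (5.49%), and 5 higher without the 5% of barcodes with most UMIs (4.56%), where LPS against saline had 0 lower (3.54%). A gate of 3 markers gave 3 lower after poly(I:C) (5.89%) and 7 lower after LPS than after poly(I:C) (2.54%). Without Syt1-positive non-neuronal barcodes LPS against saline gave 3 higher (2.84%) and 3 lower (3.50%). In endothelial barcodes without neutrophil markers the LPS to poly(I:C) ratio of Trim25 was 0.525. The cause of these differences was not tested, other than that a higher minimum leaves fewer genes. No direction reversed. Class calls rest on few UMIs, and animal-to-animal variation could not be measured.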
